A study of Homo sapiens with 27 samples.

Results

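The genes described here are 34 genes of cholesterol and fatty acid synthesis and of the SREBP system that controls them, followed across every RNA library of the human cell line SHP77, which derives from small cell lung cancer and is of neuroendocrine type. Members were found by gene symbol in the 2 deposited tables of normalized counts, and all 34 were present in both. They were 34 of 41686 genes in the shRNA table and 34 of 34742 in the siRNA table, and each passed the filter of a mean of at least 10 normalized counts, which left 19068 and 16750 genes for testing. By role, 7 make the mevalonate and isoprenoid precursors, 11 turn those into squalene and sterols, 7 control SREBP activity, 1 carries sterol within the cell and 8 make or modify fatty acids. The first 2 groups together are called the 18 sterol pathway enzymes below.

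Cells make cholesterol from acetyl-CoA through mevalonate, farnesyl diphosphate, squalene and lanosterol, and make fatty acids from the same acetyl-CoA. SREBP proteins are transcription factors held in the endoplasmic reticulum membrane. When membrane sterol falls, the escort protein SCAP releases from INSIG proteins and carries SREBP to the Golgi, where the proteases encoded by MBTPS1 and MBTPS2 cut it free to enter the nucleus. SREBF2 mainly drives sterol genes and SREBF1 mainly fatty acid genes.

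SHP77 cells infected with lentivirus carried an shRNA against circRMST, a circular RNA from the RMST locus, or the control shGFP, and were then kept in puromycin (3 µg/mL) for a minimum of 3 days. Each of 2 circRMST shRNAs and shGFP had 2 libraries of total RNA. Other SHP77 cells were transfected for 72 hours with 1 of 2 siRNAs against the transcription factor SOX2, 1 of 2 against NKX2-1, or si-control. Each siRNA had 2 libraries of poly(A) RNA and si-control had 3. The series design calls the replicates biological, and all come from 1 cell line. The 4 libraries of a knockdown were therefore 2 reagents with 2 replicates each.

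The shRNA libraries held 46850300 to 57352556 recovered reads, and siRNA libraries 15486858 to 50098747. SOX2 fell from a mean of 1142 to 423 normalized counts with SOX2 siRNA (log2 change -1.43 ± 0.05, SE). NKX2-1 fell from 2234 to 915 with NKX2-1 siRNA (log2 change -1.29 ± 0.05), while SOX2 rose there by 0.96 ± 0.05. With SOX2 siRNA, NKX2-1 rose by 0.21 ± 0.05. With circRMST knockdown both genes also passed, SOX2 at 0.24 ± 0.06 and NKX2-1 at -0.41 ± 0.08. Of these 2 changes, only that of NKX2-1 passed with shRNA 1 alone and only that of SOX2 with shRNA 2 alone. Whether they take part in the results below was not tested. The RMST gene row does not single out the circular RNA, and its means of 268 and 290 in circRMST knockdown and shGFP gave an adjusted p of 0.478, so the circRMST labels were not checked by it. The 8 neuroendocrine markers summed to 52578 to 57246 normalized counts in shGFP and to 26142 to 29592 with circRMST shRNA. They summed to 58848 to 59785 in si-control, 64710 to 69648 with SOX2 siRNA and 60792 to 65092 with NKX2-1 siRNA. Mitochondrial genes took 46.5 to 47.6% of reads in shGFP and 48.4 to 51.5% with circRMST shRNA, and 7SL-type RNA 0.180 to 0.186% and 0.379 to 0.467%. In the siRNA libraries mitochondrial genes took 9.95 to 10.3% of reads in si-control, 6.90 to 8.96% with SOX2 siRNA and 7.16 to 8.75% with NKX2-1 siRNA.

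Markers of other cell types were summed from lists. Fibroblast markers summed to 178 to 259 normalized counts in shGFP, 764 to 812 with circRMST shRNA 1 and 373 to 450 with shRNA 2, and to 84.9 to 116 in si-control, 219 to 291 with SOX2 siRNA and 67.0 to 115 with NKX2-1 siRNA. Of these, LUM, a matrix proteoglycan, rose by 2.34 ± 0.13 with circRMST knockdown and 1.47 ± 0.15 with SOX2 siRNA, while COL1A1 and DCN fell with circRMST knockdown and COL1A2 and COL3A1 stayed at or under 12.3 in every library. Blood and endothelial markers, mostly PECAM1, summed to 411 to 421 in shGFP and 148 to 179 with circRMST shRNA, and to 344 to 361 in si-control, 75.1 to 142 with SOX2 siRNA, 149 to 155 with NKX2-1 siRNA 1 and 433 to 439 with NKX2-1 siRNA 2. Hepatocyte markers, mostly SERPINA1, summed to 2314 to 2396 in shGFP and 3693 to 4618 with circRMST shRNA, and to 1718 to 1780 in si-control, 982 to 1250 with SOX2 siRNA and 1258 to 1797 with NKX2-1 siRNA. ALB, the albumin gene, stayed at or under 5.14 in every library, and adipocyte markers summed to at most 41.8. Whether these shifts and those of mitochondrial and 7SL-type reads take part in the results below was not tested.

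With circRMST knockdown, SREBF2 had the largest fall of the 34 genes, from a mean of 1425 to 691 normalized counts, while the protease gene MBTPS1, the escort gene SCAP and the fatty acid synthase gene FASN rose. Sterol pathway enzymes moved in both directions, 5 of 18 higher and 5 lower. Over all 34 members, 12 were higher and 9 lower at an adjusted p under 0.05, and 13 did not pass. Over all genes tested, 27.8% passed as higher and 25.9% as lower, so the member counts stood near the background for higher and lower calls. The median log2 change was -0.05 over the members and 0.001 over all genes. Tests were limma's moderated test on log2(normalized count + 1), adjusted by Benjamini-Hochberg over all genes tested. For each target the means of its reagents were averaged as equals. Standard errors and adjusted p values therefore measure the spread between replicate libraries and leave out that between reagents. A bulk library cannot tell fewer cells of a type from less RNA per cell.

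Among the genes that control SREBP, SREBF2, which encodes the transcription factor of sterol synthesis, read 1404 and 1446 normalized counts in the shGFP libraries. It read 698 and 624 with circRMST shRNA 1 and 717 and 726 with shRNA 2. Every knockdown library lay below both controls, with a log2 change of -1.05 ± 0.08 (SE, adjusted p = 1.28e-10). SREBF2 (ENSG00000198911.11) lies on chromosome 22 at 41833105 to 41907305 of GRCh38.p14. SREBF1, the related factor of fatty acid synthesis, read 947 and 994 in shGFP, 1062 and 880 with shRNA 1, and 970 and 880 with shRNA 2. The SREBF1 groups overlapped, and the log2 change of -0.04 ± 0.09 did not pass (adjusted p = 0.735).

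MBTPS1, whose product makes the first Golgi cut in SREBP, read 6759 and 6532 in shGFP, 11452 and 10972 with shRNA 1, and 9724 and 10081 with shRNA 2. It was above both controls in all 4 knockdown libraries, by 0.66 ± 0.05 (adjusted p = 3.36e-11). MBTPS2, the protease of the second cut, did not pass at -0.16 ± 0.10 (adjusted p = 0.178). SCAP read 724 and 749 in shGFP, 1076 and 907 with shRNA 1, and 1058 and 988 with shRNA 2, a rise of 0.45 ± 0.08. INSIG1, which holds SCAP in the endoplasmic reticulum and is itself an SREBP target, read 1834 and 1641 in shGFP, 2106 and 2087 with shRNA 1, and 2291 and 2268 with shRNA 2. Its rise was 0.33 ± 0.06 (adjusted p = 0.000106), with no overlap between the groups. INSIG2 read 479 and 422 in shGFP, 615 and 612 with shRNA 1, and 509 and 502 with shRNA 2. Its rise of 0.31 ± 0.10 did not pass without shGFP replicate 2 (0.22, adjusted p = 0.13) or with library totals set equal (0.16, adjusted p = 0.17).

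**Figure D1:**
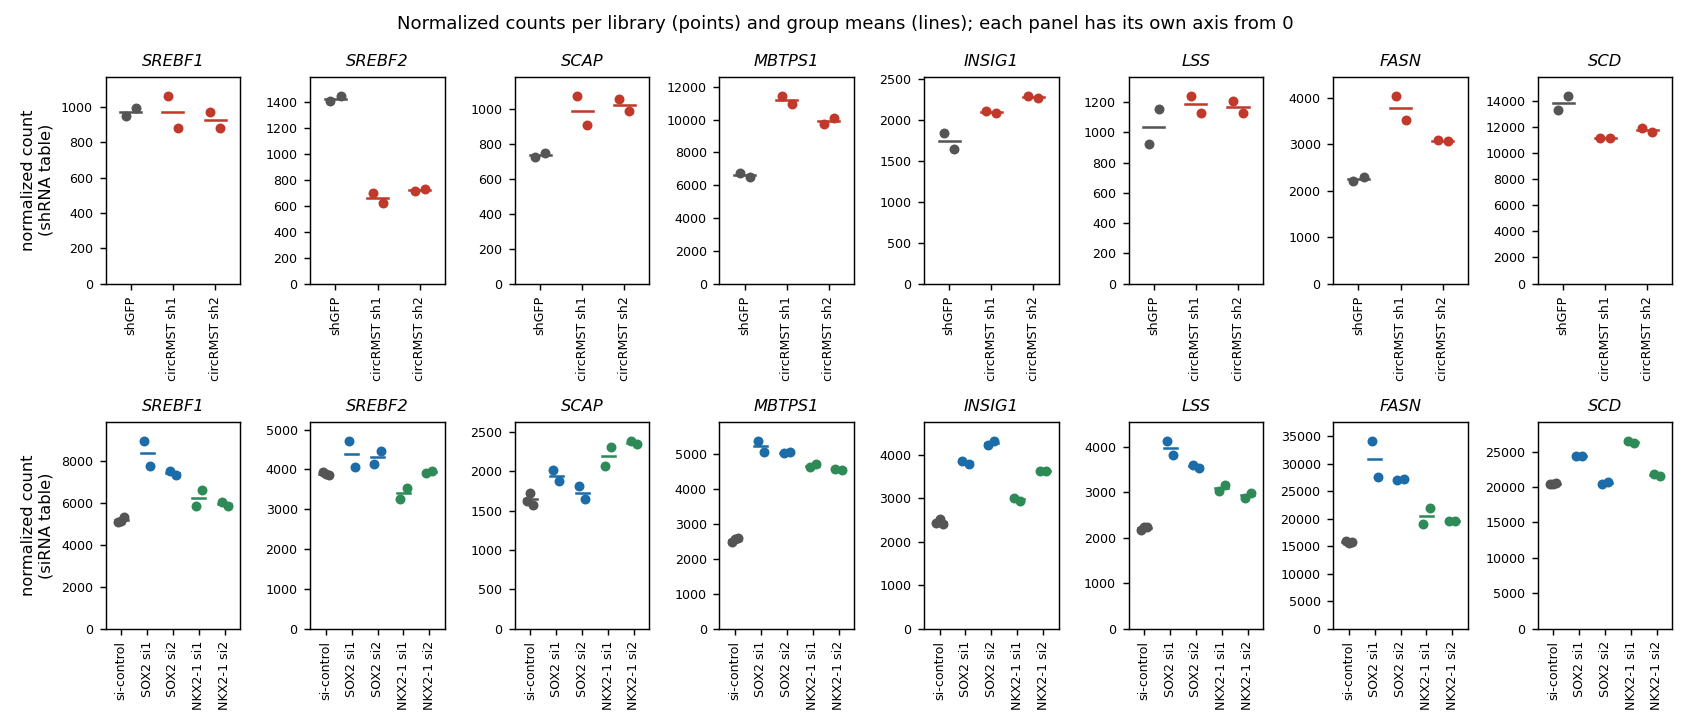
Normalized counts per library for 8 genes, with shRNA libraries in the upper row and siRNA libraries in the lower. Points are libraries and short lines are group means; every axis starts at 0, and the 2 tables were normalized separately. SREBF2 lies at 624 to 726 with circRMST shRNA against 1404 and 1446 in shGFP, and MBTPS1 is above its controls in all knockdown libraries of both rows.

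Promoter sequences from RefSeq (GRCh38.p14, 250 bases before to 50 after a start site) were found for 30 of the 34 members, at 41 start sites of 35116 in all. Motifs were searched on both strands. TCACNCCAC, a form of the sterol regulatory element that SREBP binds, was found at 1 member, SREBF2, and at 1.13% of all start sites. CCAAT, the box bound by NF-Y, which works with SREBP at many sterol genes, was found at 25 of the 41 member start sites (61.0%) and at 34.6% of all. GGGCGG, an Sp1 box, was found at 35 of 41 (85.4%) and at 45.0% of all. CACGTG was found at 12.2% of member start sites and 7.26% of all. Start sites of 1 gene can lie close together, as for ACLY and SC5D, so the same letters can count more than once. By gene, CCAAT was found at 21 of the 30 members, GGGCGG at 27 and CACGTG at 4. The start sites in all were not limited to genes tested here. AACAAAG or CATTGTN, SOX-type letters, were found at 4.88% and 15.2%, in FADS2 and SREBF1, and CACTTGA, an NKX2-1-type motif, at 2.44% and 2.48%, in the promoter of ACACA. The SOX-type letters CATTGTN and ATTGG, the reverse of CCAAT, share the letters ATTG but cannot match at the same place, and CACGTG reads alike on both strands. A match describes letters only, with no binding measured here.

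The SREBF2 promoter is shown because it holds the only sterol regulatory element match and SREBF2 had the largest fall with circRMST shRNA. The promoters of LSS, INSIG1 and FDPS are shown because these had the largest rises with SOX2 siRNA among members with CCAAT letters and 1 start site, a choice made after their values were seen. Capitals mark TCACNCCAC and CCAAT matches, the latter as ATTGG where it lies on the other strand. The windows are chr22:41832855-41833154 (plus strand), chr21:46228725-46229024 (minus), chr7:155297628-155297927 (plus) and chr1:155308616-155308915 (plus), and each runs 5′ to 3′ toward the gene.
SREBF2: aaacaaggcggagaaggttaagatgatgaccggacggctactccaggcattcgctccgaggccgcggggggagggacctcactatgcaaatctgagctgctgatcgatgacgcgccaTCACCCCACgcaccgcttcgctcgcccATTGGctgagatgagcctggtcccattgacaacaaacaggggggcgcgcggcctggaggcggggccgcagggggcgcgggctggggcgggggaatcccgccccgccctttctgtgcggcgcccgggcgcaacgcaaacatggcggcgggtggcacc
LSS: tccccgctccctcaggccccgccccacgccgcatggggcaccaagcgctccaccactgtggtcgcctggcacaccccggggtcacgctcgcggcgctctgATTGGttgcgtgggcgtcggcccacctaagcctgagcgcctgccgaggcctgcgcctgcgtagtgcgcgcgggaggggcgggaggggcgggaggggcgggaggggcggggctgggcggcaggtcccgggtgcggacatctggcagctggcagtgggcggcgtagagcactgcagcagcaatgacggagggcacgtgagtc
INSIG1: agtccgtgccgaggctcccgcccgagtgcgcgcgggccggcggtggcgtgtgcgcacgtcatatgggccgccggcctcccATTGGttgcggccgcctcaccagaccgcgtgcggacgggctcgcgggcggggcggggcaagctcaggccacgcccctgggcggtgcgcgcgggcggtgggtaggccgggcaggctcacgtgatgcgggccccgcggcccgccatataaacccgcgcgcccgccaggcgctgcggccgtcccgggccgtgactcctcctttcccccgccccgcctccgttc
FDPS: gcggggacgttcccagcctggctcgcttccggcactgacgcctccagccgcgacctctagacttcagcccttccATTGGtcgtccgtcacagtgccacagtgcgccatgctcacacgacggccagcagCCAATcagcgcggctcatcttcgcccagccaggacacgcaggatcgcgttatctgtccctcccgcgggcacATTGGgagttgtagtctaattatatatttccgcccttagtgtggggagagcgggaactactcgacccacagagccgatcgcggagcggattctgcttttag
SREBF2 has TCACCCCAC at position -133 from the start and ATTGG at -106. LSS and INSIG1 each have 1 CCAAT-type match, at -150 and -170, and FDPS has 3.

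In the mevalonate steps, IDI1, which isomerises isopentenyl diphosphate, read 4113 and 3666 in shGFP, 2605 and 2413 with shRNA 1, and 2469 and 2895 with shRNA 2. It fell by 0.58 ± 0.07 on the log2 scale (adjusted p = 1.16e-07), with every knockdown library below the controls. PMVK, which adds the second phosphate to mevalonate, moved the other way, from 257 and 213 to 371 and 389 with shRNA 1 and 444 and 405 with shRNA 2, a rise of 0.78 ± 0.12. HMGCS1, which makes HMG-CoA, read 6920 and 7436 in shGFP, 5579 and 6483 with shRNA 1, and 7940 and 7565 with shRNA 2. Its mean change of -0.07 ± 0.06 did not pass, and the shRNAs themselves differed by 0.37, with shRNA 1 lower. ACAT2, which joins acetyl-CoA units, fell by 0.37 ± 0.06, and MVD, which removes the carboxyl group, had a change of 0.33 ± 0.10 that did not pass without shGFP replicate 1 (0.19, adjusted p = 0.20). MVK and FDPS did not pass.

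Among the squalene and sterol enzymes, FDFT1, squalene synthase, read 6251 and 6027 in shGFP, 4639 and 4297 with shRNA 1, and 4264 and 4092 with shRNA 2. It fell by 0.51 ± 0.05 (adjusted p = 2.26e-08). EBP, the sterol isomerase, read 1116 and 1371 in shGFP, 790 and 979 with shRNA 1, and 878 and 668 with shRNA 2, a fall of 0.59 ± 0.11. These groups did not overlap for either gene. TM7SF2, a sterol reductase, rose by 0.80 ± 0.16 from 147 and 113 to 241 and 223 with shRNA 1 and 225 and 215 with shRNA 2. CYP51A1, the lanosterol demethylase, rose by 0.85 ± 0.24 at low counts of 74.0 and 109 in shGFP and 113 to 225 with knockdown, and the call was lost without shGFP replicate 1 (0.57, adjusted p = 0.22). SQLE, squalene epoxidase, read 6592 and 6038 in shGFP, 7619 and 7650 with shRNA 1, and 6507 and 6780 with shRNA 2. Its groups overlapped, and the rise of 0.17 ± 0.05 (adjusted p = 0.00541) did not pass once totals were set equal (0.03, adjusted p = 0.66) or once shGFP replicate 2 was left out (0.11, adjusted p = 0.14). LSS, lanosterol synthase, read 926 and 1152 in shGFP, 1242 and 1129 with shRNA 1, and 1209 and 1128 with shRNA 2, which overlapped and did not pass (0.19 ± 0.08, adjusted p = 0.0667); it passed without shGFP replicate 2 (0.34, adjusted p = 0.012) or without circRMST shRNA 1 replicate 2 (0.22, adjusted p = 0.046). MSMO1 fell by 0.34 ± 0.09, a call lost without shGFP replicate 1 (-0.26, adjusted p = 0.079).

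Of the 8 fatty acid genes, 3 were higher and 3 lower with circRMST knockdown. FASN, fatty acid synthase, read 2222 and 2302 in shGFP, 4046 and 3521 with shRNA 1, and 3086 and 3082 with shRNA 2. The rise was 0.59 ± 0.06 (adjusted p = 1.84e-08), and shRNA 1 was higher than shRNA 2. ELOVL6, which lengthens fatty acids, and FADS1, a desaturase, rose by 0.32 ± 0.07 and 0.30 ± 0.05. SCD, the stearoyl-CoA desaturase, read 13272 and 14358 in shGFP, 11174 and 11144 with shRNA 1, and 11899 and 11600 with shRNA 2, a fall of 0.27 ± 0.05. ACSS2, which makes acetyl-CoA from acetate, read 463 and 422 in shGFP, 299 and 274 with shRNA 1, and 323 and 413 with shRNA 2, and its fall of 0.45 ± 0.12 was lost without shGFP replicate 1 (-0.38, adjusted p = 0.082). ACACA, the acetyl-CoA carboxylase, fell by 0.39 ± 0.05. ACLY, which makes acetyl-CoA from citrate, and FADS2 did not pass.

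The balance of circRMST calls moved with the scaling. With library totals set equal, 9 members were higher and 17 lower, and of the 18 sterol pathway enzymes 3 were higher and 10 lower. All genes then split into 3636 higher and 6512 lower, against 5294 and 4936 in the deposited scaling, and their median log2 change moved to -0.14. In the deposited scaling, with equal totals, with equal totals after mitochondrial and 7SL-type genes were left out and with quantile normalization, 9 members were higher each time, among them MBTPS1, SCAP, INSIG1 and FASN, and 9 were lower each time, among them SREBF2, IDI1, FDFT1, EBP and SCD. With each shRNA tested alone against shGFP, 10 members were higher with both and 8 lower with both, against 19.6% and 17.4% of all genes. In the shRNA table, 1548 protein-coding genes had no read in any siRNA library. Their median excess in shGFP over circRMST shRNA libraries was 4.03 normalized counts, with a 99th percentile of 38.7. The siRNA libraries were of poly(A) RNA, so a lack of reads there does not show that a gene is silent. The smallest difference among the 9 members that fell was 116 normalized counts, for ACSS2. Whether such an excess takes part in the falls was not tested.

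**Figure D2:**
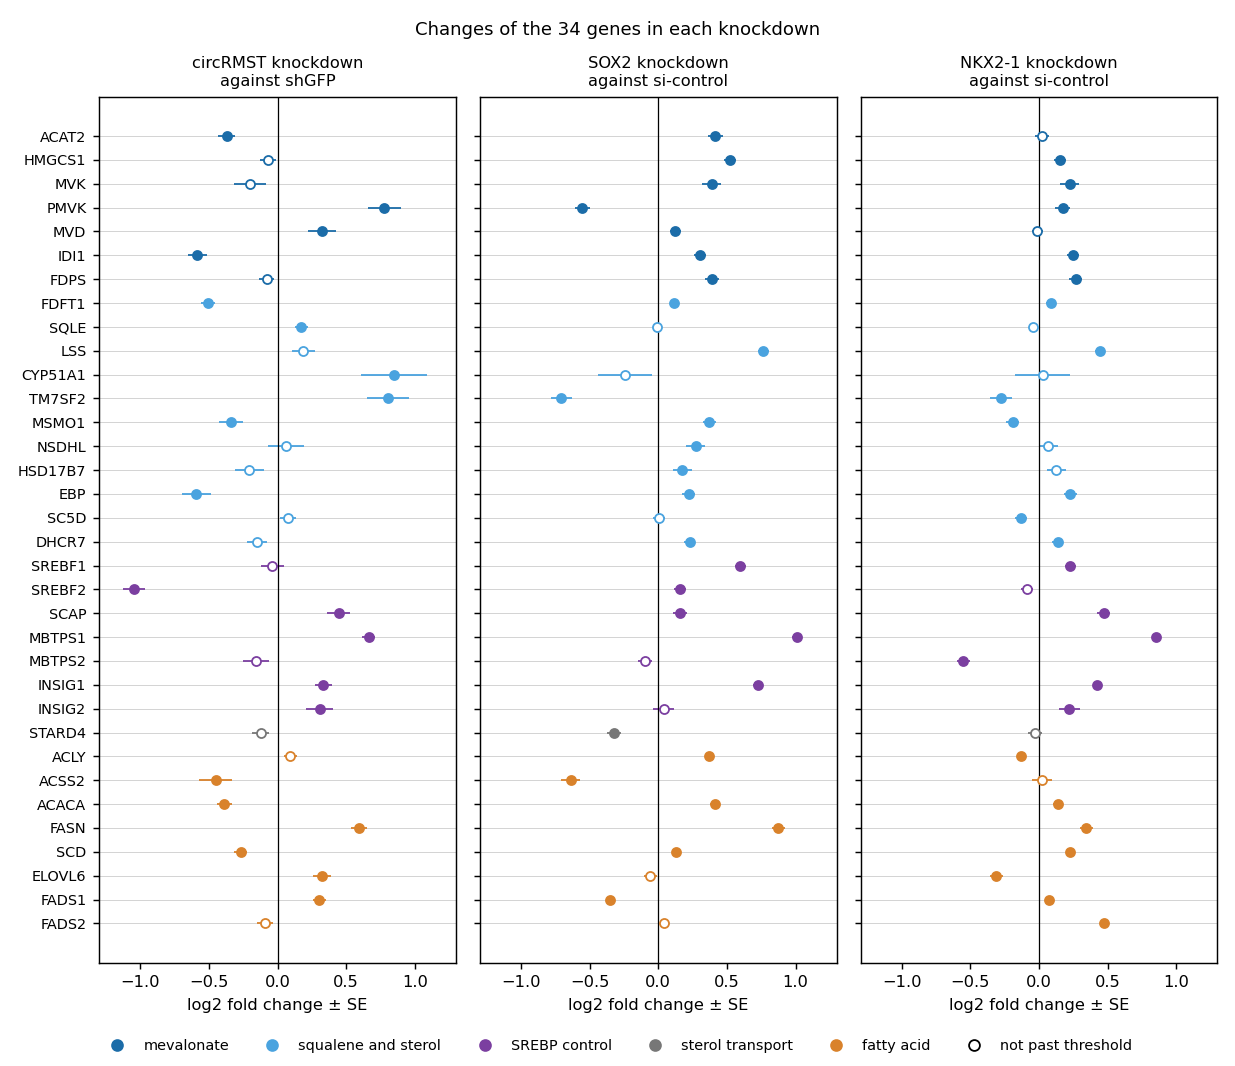
Log2 fold changes with standard errors of the 34 genes in circRMST, SOX2 and NKX2-1 knockdown, each against its own controls and coloured by role. Filled points passed an adjusted p of 0.05 and open points did not; the SOX2 and NKX2-1 panels share the si-control libraries. SREBF2 is at -1.05 in the first panel, and MBTPS1 at 0.66, 1.01 and 0.86 across the panels.

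With SOX2 knockdown, most of the sterol pathway rose, with 13 of the 18 sterol pathway enzymes higher and 2 lower. SREBF1, INSIG1, MBTPS1, LSS and FASN rose by 0.60 to 1.01 on the log2 scale. Over all 34 members, 22 were higher, 5 lower and 7 did not pass, where 27.6% of all genes tested passed as higher and 28.7% as lower. The median log2 change was 0.17 over the members and 0.01 over all genes. In 20 members every SOX2 siRNA library was above every si-control library, and in 4 every one was below, against 24.5% and 25% of all genes tested.

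In the control of SREBP, MBTPS1 rose most, from a mean of 2552 to 5134 normalized counts. Its libraries read 2487, 2568 and 2600 in si-control, 5382 and 5064 with SOX2 siRNA 1, and 5034 and 5055 with siRNA 2, for a log2 change of 1.01 ± 0.03 (adjusted p = 3.73e-19). INSIG1 read 2426, 2515 and 2414 in si-control, 3871 and 3799 with siRNA 1, and 4221 and 4326 with siRNA 2, a rise of 0.72 ± 0.04. SREBF1 read 5082, 5134 and 5332 in si-control, 8938 and 7738 with siRNA 1, and 7483 and 7317 with siRNA 2, a rise of 0.60 ± 0.04 (adjusted p = 1.86e-12). None of these groups overlapped. SREBF2 read 3943, 3875 and 3852 in si-control, 4716 and 4059 with siRNA 1, and 4146 and 4473 with siRNA 2, a smaller rise of 0.16 ± 0.04 (adjusted p = 0.00258) that did not pass when no filter on low values was used (adjusted p = 0.076). SCAP read 1622, 1729 and 1576 in si-control, 2012 and 1877 with siRNA 1, and 1814 and 1644 with siRNA 2. The SCAP groups overlapped, and its rise of 0.16 ± 0.05 did not pass without si-control replicate 3 (0.13, adjusted p = 0.055) or without SOX2 siRNA 2 replicate 1 (0.12, adjusted p = 0.052). INSIG2, at 326, 313 and 317 in si-control, 379 and 321 with siRNA 1, and 318 and 297 with siRNA 2, did not pass.

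Of the 7 mevalonate genes, 6 rose and PMVK fell. HMGCS1 read 3222, 3131 and 3177 in si-control, 4046 and 4614 with SOX2 siRNA 1, and 4889 and 4782 with siRNA 2, a rise of 0.52 ± 0.04 (adjusted p = 6.68e-11). ACAT2, MVK, FDPS and IDI1 rose by 0.30 to 0.42, and MVD by 0.13, a call lost without si-control replicate 2 (0.11, adjusted p = 0.053) or replicate 3 (0.11, adjusted p = 0.050). PMVK read 996, 1018 and 920 in si-control, 547 and 586 with siRNA 1, and 781 and 784 with siRNA 2. It fell by 0.55 ± 0.05, with every knockdown library below the controls.

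Among squalene and sterol enzymes, LSS, whose promoter holds ATTGG once, rose most. It read 2178, 2235 and 2237 in si-control, 4133 and 3825 with SOX2 siRNA 1, and 3613 and 3533 with siRNA 2, a rise of 0.77 ± 0.04 (adjusted p = 1.03e-15). MSMO1, which removes sterol methyl groups, rose by 0.37, NSDHL by 0.27, DHCR7 by 0.23 and EBP by 0.22. HSD17B7 rose by 0.17, a call lost without any one of si-control replicates 2 and 3 or replicate 2 of either SOX2 siRNA (adjusted p = 0.11 to 0.19). TM7SF2 read 424, 430 and 419 in si-control, 266 and 227 with siRNA 1, and 272 and 278 with siRNA 2, a fall of 0.71 ± 0.08. SQLE read 4934, 4972 and 5026 in si-control, 4767 and 4799 with siRNA 1, and 5007 and 5209 with siRNA 2, which overlapped and did not pass (-0.01 ± 0.03, adjusted p = 0.804). STARD4, a cytosolic sterol carrier, read 981, 1004 and 1044 in si-control, 640 and 644 with siRNA 1, and 995 and 1042 with siRNA 2. Its mean fell by 0.32 ± 0.05, with siRNA 2 overlapping the controls, and the reagents differed by 0.66 ± 0.07 (adjusted p = 2.40e-08).

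FASN had the largest rise of the fatty acid genes, reading 15976, 15545 and 15790 in si-control, 34177 and 27653 with SOX2 siRNA 1, and 27119 and 27324 with siRNA 2. The rise was 0.88 ± 0.05 (adjusted p = 4.37e-15). ACACA and ACLY, which supply FASN with malonyl-CoA and acetyl-CoA, rose by 0.41 ± 0.04 and 0.37 ± 0.03. SCD read 20504, 20442 and 20505 in si-control, 24444 and 24359 with siRNA 1, and 20417 and 20775 with siRNA 2. It rose with siRNA 1, while siRNA 2 overlapped the controls. ACSS2 read 434, 489 and 485 in si-control, 274 and 254 with siRNA 1, and 347 and 338 with siRNA 2, a fall of 0.64 ± 0.07. FADS1 read 8688, 8605 and 8605 in si-control, 6227 and 6213 with siRNA 1, and 7169 and 7492 with siRNA 2, a fall of 0.35 ± 0.03. With each SOX2 siRNA tested alone, 17 members were higher with both, 4 lower with both and 0 opposite, against 18.6%, 19.3% and 1.01% of all genes.

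**Figure D3:**
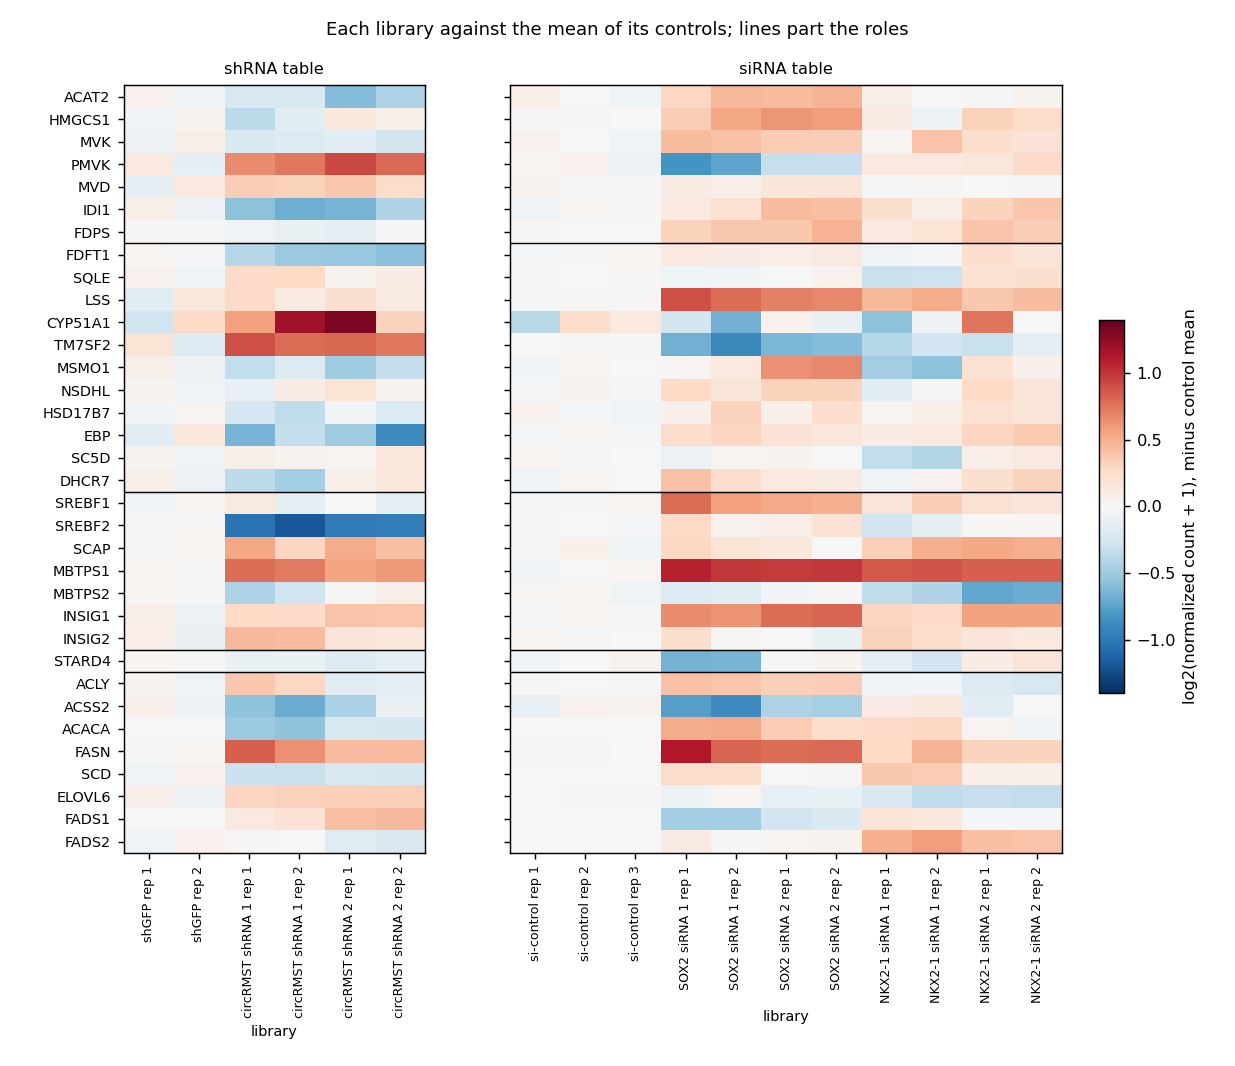
Each cell is the log2(normalized count + 1) of 1 gene in 1 library minus the mean of the control libraries of the same table; red is higher and blue lower. Rows are the 34 genes in order of role. MBTPS1 is red in every knockdown library, and MSMO1, SQLE and SC5D are blue with NKX2-1 siRNA 1 and red with NKX2-1 siRNA 2.

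With NKX2-1 knockdown, 19 members were higher, 6 lower and 9 did not pass, where 18.5% of all genes tested passed as higher and 21.4% as lower. The median log2 change was 0.13 over the members and -0.004 over all genes. MBTPS1, SCAP, INSIG1, LSS and the desaturase gene FADS2 rose by 0.42 to 0.86, and MBTPS2 fell. Of the 18 sterol pathway enzymes, 9 were higher and 3 lower, and 5 were higher when no filter on low values was used. The 2 siRNAs differed here: 4 of the 18 were higher and 4 lower with siRNA 1 alone, and 11 and 0 with siRNA 2 alone. Their median log2 changes were 0.01 and 0.22, against -0.005 and 0.005 over all genes. MSMO1, called lower on average, lay below si-control with siRNA 1 and above it with siRNA 2. With library totals set equal, 20 members were higher and 5 lower, while all genes went from 3092 higher and 3592 lower to 4225 and 2643. In 13 members every knockdown library was above every control, and in 4 every one was below, against 15.9% and 18% of all genes tested.

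MBTPS1 read 4625 and 4711 with NKX2-1 siRNA 1 and 4570 and 4559 with siRNA 2, a rise of 0.86 ± 0.03 (adjusted p = 2.90e-17) over the same si-control libraries as for SOX2. MBTPS2 read 1103, 1119 and 1040 in si-control, 847 and 810 with siRNA 1, and 655 and 673 with siRNA 2, a fall of 0.55 ± 0.05 (adjusted p = 8.90e-10). The genes of the 2 proteases that cut SREBP in turn therefore changed in opposite directions, with no overlap between groups for either. SCAP read 2063 and 2315 with siRNA 1 and 2387 and 2344 with siRNA 2, a rise of 0.47 ± 0.05. INSIG1 read 3018 and 2944 with siRNA 1 and 3631 and 3634 with siRNA 2, a rise of 0.42 ± 0.03. INSIG2, at 398 and 379 with siRNA 1 and 358 and 352 with siRNA 2, rose by 0.22 ± 0.08, a call lost without si-control replicate 2 or 3 or without replicate 1 of either siRNA (adjusted p = 0.058 to 0.072). SREBF1 read 5852 and 6584 with siRNA 1 and 6029 and 5834 with siRNA 2, a rise of 0.23 ± 0.04. SREBF2 read 3263 and 3531 with siRNA 1 and 3921 and 3968 with siRNA 2, and did not pass (-0.09 ± 0.04, adjusted p = 0.104), though it passed without NKX2-1 siRNA 1 replicate 2 (-0.12, adjusted p = 0.036).

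LSS read 3029 and 3170 with NKX2-1 siRNA 1 and 2874 and 2988 with siRNA 2, a rise of 0.44 ± 0.04 (adjusted p = 2.29e-10). HMGCS1 read 3441 and 3016 with siRNA 1 and 3967 and 3788 with siRNA 2, a rise of 0.15 ± 0.04 whose groups overlapped and which did not pass without the filter on low values (adjusted p = 0.12). SQLE read 4015 and 4066 with siRNA 1 and 5731 and 5804 with siRNA 2, on either side of the controls, and its mean did not pass. FDPS, IDI1 and EBP rose by 0.23 to 0.27, and TM7SF2 fell by 0.28 ± 0.08. MVK, PMVK, FDFT1 and DHCR7 rose by 0.09 to 0.22, and SC5D fell by 0.13. Each lost its call when 1 of several libraries was left out (limma, adjusted p = 0.051 to 0.14). SC5D read 1151 and 1099 with siRNA 1 and 1553 and 1602 with siRNA 2, on either side of si-control at 1483, 1442 and 1450. MVK, FDFT1 and DHCR7 overlapped si-control with siRNA 1 and lay above it with siRNA 2.

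FADS2, a desaturase of polyunsaturated fatty acids, read 7460, 7476 and 7539 in si-control. It read 10562 and 11274 with NKX2-1 siRNA 1, and 10016 and 9852 with siRNA 2. Its rise was 0.47 ± 0.03 (adjusted p = 5.51e-12), all 4 libraries being above the controls. FASN read 19134 and 21927 with siRNA 1 and 19606 and 19568 with siRNA 2, a rise of 0.35 ± 0.05. SCD read 26526 and 26236 with siRNA 1 and 21916 and 21581 with siRNA 2, a rise of 0.23 ± 0.03. ELOVL6 read 1268, 1265 and 1295 in si-control, 1095 and 994 with siRNA 1, and 1018 and 1006 with siRNA 2, a fall of 0.31 ± 0.05. ACLY fell by 0.13 ± 0.03, and the rise of FADS1 by 0.07 was lost without any one of 6 libraries (adjusted p = 0.092 to 0.13). FADS1 read 9793 and 9582 with siRNA 1 and 8514 and 8519 with siRNA 2, on either side of si-control at 8688, 8605 and 8605. With each NKX2-1 siRNA alone, 11 members were higher with both, 2 lower with both and 1 opposite, against 8.88%, 10.2% and 1.78% of all genes.

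Because SOX2 and NKX2-1 knockdowns share si-control, they were also compared directly. SOX2 siRNA libraries were higher than NKX2-1 siRNA libraries in 19 members and lower in 9, where 27.9% and 28% of all genes tested passed. The 18 sterol pathway enzymes gave 10 higher and 2 lower, but 5 higher with equal totals and 6 with quantile normalization. FASN was higher with SOX2 siRNA by 0.53 ± 0.04, ACLY by 0.50 ± 0.03, HMGCS1 by 0.37 ± 0.04, SREBF1 by 0.37 ± 0.04 and LSS by 0.32 ± 0.03. MBTPS1 was higher by 0.15 ± 0.03 (adjusted p = 0.000161), and the libraries of the 2 knockdowns did not overlap. PMVK, ACSS2, FADS1 and FADS2 were lower with SOX2 siRNA by 0.73, 0.66, 0.43 and 0.43, and SCAP by 0.31. For SC5D, FDPS, MVD, MVK, DHCR7 and INSIG2, the call was lost with quantile normalization, equal totals or both.

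The 2 siRNAs against NKX2-1 differed in both the sterol and the fatty acid genes. With siRNA 1 set against siRNA 2, 11 of the 18 sterol pathway enzymes were lower and 0 higher, while 5 of the 8 fatty acid genes were higher and 0 lower. Over all members 14 were lower and 6 higher, where 14.8% and 11.7% of all genes passed. MSMO1 read 940 and 886 with siRNA 1 and 1533 and 1383 with siRNA 2, with si-control at 1288, 1339 and 1326 in between. The difference was -0.67 ± 0.06 (limma, adjusted p = 3.43e-09). SC5D, a sterol desaturase, differed by -0.49 ± 0.06, HMGCS1 by -0.27 ± 0.06 and INSIG1 by -0.29 ± 0.05. SCD and ACACA were higher with siRNA 1 by 0.28 ± 0.03 and 0.28 ± 0.05. With library totals set equal, 7 sterol pathway enzymes were lower and 1, LSS, was higher (0.14, adjusted p = 0.033), as the calls of CYP51A1, EBP, FDPS and IDI1 were lost, and 6 fatty acid genes were higher. All genes went from 1966 higher and 2481 lower to 2883 and 1760 in that scaling. The count of lower sterol pathway enzymes was 7 without NKX2-1 siRNA 1 replicate 1, and that of lower members 9. NKX2-1 itself stood at a mean of 1014 with siRNA 1 and 816 with siRNA 2, and recovered reads per library ran from 17242602 to 50098747, the deepest being siRNA 1 replicate 2. Whether depth or the level of NKX2-1 takes part in these differences was not tested.

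Fewer members passed between the reagents of the other targets. SOX2 siRNA 1 against siRNA 2 gave 6 members higher and 8 lower, where 8.08% and 10.4% of all genes passed, and the count of higher members fell to 1 without SOX2 siRNA 2 replicate 2, 2 without siRNA 1 replicate 1 and 3 without siRNA 2 replicate 1. MSMO1 was lower with SOX2 siRNA 1 by 0.57 ± 0.06, and PMVK by 0.47 ± 0.07. circRMST shRNA 1 against shRNA 2 gave 5 higher and 5 lower, where 10.9% and 8.2% passed, and 2 higher without shRNA 1 replicate 1 or shRNA 2 replicate 1. All genes there split into 2076 higher and 1563 lower, or 1418 and 2423 with equal totals after mitochondrial and 7SL-type genes were left out. DHCR7, a reductase late in sterol synthesis, was lower with circRMST shRNA 1 by 0.54 ± 0.09, and ACLY higher by 0.48 ± 0.06.

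**Figure D4:**
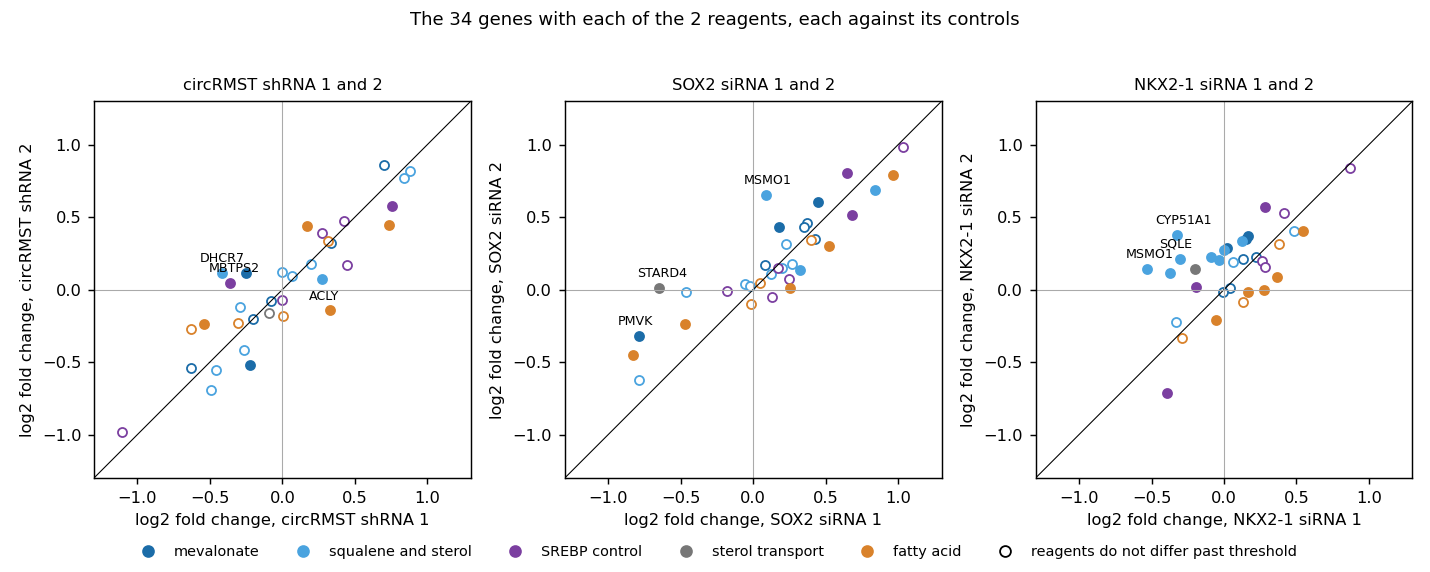
Log2 fold changes of the 34 genes with the first reagent (horizontal) and the second (vertical) for each target, with the line of equal change. Filled points differed between reagents at an adjusted p of 0.05, and each panel names the 3 with the largest difference. In the NKX2-1 panel sterol pathway enzymes such as MSMO1, at -0.53 and 0.14, lie above the line and fatty acid genes such as SCD, at 0.37 and 0.09, below it.

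The shRNA and siRNA tables share no library and were normalized separately, so only calls within each were set side by side. Of the 9 members lower with circRMST shRNA, 8 were higher with SOX2 siRNA (88.9%) and 1, ACSS2, was lower. These 8 were ACAT2, IDI1, FDFT1, MSMO1, EBP, SREBF2, ACACA and SCD. All calls here are those of the deposited scaling. The 9 were lower in each of 4 scalings, but 17 members were lower with equal library totals. The rise of FDFT1 with SOX2 siRNA did not pass with quantile normalization (0.03, limma, adjusted p = 0.37). Of all 4207 genes lower with circRMST shRNA and tested in both tables, 32.5% were higher with SOX2 siRNA, and of all 34 members 64.7%. Of the 12 members higher with circRMST shRNA, 5 were higher with SOX2 siRNA (41.7%, against 28.6% of all 5033 such genes) and 3, PMVK, TM7SF2 and FADS1, were lower. The 5 were MBTPS1, SCAP, INSIG1, FASN and MVD. With NKX2-1 siRNA, 5 of the same 9 were higher (55.6%, against 21.5%) and 7 of the same 12 (58.3%, against 20.3%), which lie near the 55.9% of all 34 members. The members were not chosen at random, and these shares were not tested.

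Other genes around the pathway were counted from lists, to be read against the shares of all genes that passed as higher and lower: 27.8% and 25.9% with circRMST knockdown, 27.6% and 28.7% with SOX2 siRNA, and 18.5% and 21.4% with NKX2-1 siRNA. Among 18 genes of SREBP turnover and transport, 9 were higher and 5 lower with circRMST knockdown, 6 and 5 with SOX2 siRNA, and 2 and 8 with NKX2-1 siRNA. The SOX2 counts stood near those shares. SPRING1, which MBTPS1 needs for its activity, fell with circRMST knockdown from a mean of 8275 to 2443 normalized counts (-1.78 ± 0.05, adjusted p = 1.33e-17). PAQR3, which tethers SCAP to the Golgi, rose from 1356 to 3991 (1.56 ± 0.06). With SOX2 siRNA neither passed, at -0.06 ± 0.04 and 0.03 ± 0.05. With SOX2 siRNA, TRIB1 fell by 0.75 ± 0.06 and ERLIN2, part of a complex that degrades sterol-regulated proteins, by 0.53 ± 0.05.

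Genes of sterol uptake, storage and trafficking were 7 higher and 1 lower of 13 with circRMST knockdown, 2 and 7 of 12 with SOX2 siRNA, and 3 and 5 of 12 with NKX2-1 siRNA. SOAT1, which esterifies cholesterol for storage, rose by 1.13 ± 0.07 with circRMST knockdown, and GRAMD1B, a sterol transporter of the endoplasmic reticulum, by 1.09 ± 0.07 there and fell by 0.47 ± 0.05 with SOX2 siRNA. LXR targets and efflux genes were 5 and 1, 2 and 3, and 3 and 2 of 12 in the same order of knockdowns. SCARB1, a lipoprotein receptor, rose by 1.05 ± 0.08 with circRMST knockdown. Genes of the isoprenoid side branches were 3 higher and 4 lower, 8 and 2, and 2 and 2 of 12. All genes had 27.8% higher and 25.9% lower with circRMST knockdown, 27.6% and 28.7% with SOX2 siRNA, and 18.5% and 21.4% with NKX2-1 siRNA. RABGGTB, a subunit of the enzyme that attaches geranylgeranyl groups, fell by 0.71 ± 0.05 with circRMST knockdown, while PDSS1, which makes the coenzyme Q tail, rose by 0.47 ± 0.07 with SOX2 siRNA.

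Other fatty acid synthesis genes were 6 higher and 6 lower of 15 with circRMST knockdown, 2 and 10 with SOX2 siRNA, and 2 and 3 with NKX2-1 siRNA. ELOVL4, which makes very long fatty acids, rose by 0.86 ± 0.08 with circRMST knockdown and fell by 0.73 ± 0.07 with SOX2 siRNA and 1.22 ± 0.07 with NKX2-1 siRNA. Fatty acid oxidation genes were 9 and 3 of 19, 1 and 8 of 18, and 5 and 7 of 18. PPARA, the nuclear receptor that drives fatty acid oxidation genes, rose by 0.91 ± 0.07 with circRMST knockdown, from 1007 to 1898, and fell by 1.25 ± 0.06 with SOX2 siRNA, from 1410 to 592. Other SREBP targets were 6 higher and 8 lower of 21 with circRMST knockdown, 9 and 7 of 22 with SOX2 siRNA, and 5 and 8 of 22 with NKX2-1 siRNA. For all genes the shares were 27.8% and 25.9%, 27.6% and 28.7%, and 18.5% and 21.4% in the same order. RDH11 fell by 1.15 ± 0.06 with circRMST knockdown, and FADS3, a relative of the desaturases, fell by 1.65 ± 0.10 with SOX2 siRNA.

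Some members may share reads with other loci. FADS1 and FADS2 overlap each other in RefSeq, ACAT2 overlaps TCP1 and SOD2, IDI1 overlaps WDR37, SREBF1 overlaps RAI1, MVK overlaps MMAB, MBTPS2 overlaps YY2 and ACACA overlaps C17orf78. FDPS has 10 named pseudogenes, IDI1 and CYP51A1 3 each, HSD17B7 2 and SCD 1. The shRNA kit marks strand, but whether counting used it is not given in the sources used here, so values of these genes are uncertain to that extent.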

How the data were processed

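The deposited tables hold normalized counts, a signal in which the authors scaled each library, with 1 table for 6 shRNA and 1 for 11 siRNA libraries of SHP77 cells. The submitters' processing notes name cutadapt 2.5, STAR 2.5.2b, DESeq2 and hg38; the annotation and the counter are not given in the sources used here. Reads were recovered from each library's step (100% of values within 0.05 of a whole number). Replicates of a group differed by more than sampling noise (chi-square over degrees of freedom 1.53 to 6.02). The 10 other samples of the series were not analysed here.

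Genes with a mean of at least 10 were fitted with limma 3.58.1 (R 4.3.3) on log2(normalized count + 1) over all libraries of a table, with Benjamini-Hochberg adjustment over all genes tested and a threshold of 0.05. Fold changes on this scale understate changes of low genes. The fit was tested on simulated data. Alternatives were edgeR 4.0.16 and DESeq2 1.42.0 on the recovered reads, 3 other scalings, pseudocounts of 0.5 and 5, no filter or a mean of at least 50, only the groups compared, left-out libraries and a replicate block.

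Per-library values are given for 10 fixed genes and for up to 5 rises and 5 falls per comparison that passed with no overlap between groups; other lists name up to 2 genes per comparison by size of change, and further genes were named after their values were seen. Members and lists were chosen with earlier results of these data known. Some genes that the rules took are not reported here.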

Additional observations from a re-analysis of the deposited data

Results flagged for a closer look

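For 2 of the 34 genes both reagents of 1 target passed against the controls, in opposite directions. ACLY, which makes acetyl-CoA from citrate, was higher than shGFP with circRMST shRNA 1 (log2 change 0.33) and lower with circRMST shRNA 2 (-0.14), and the shRNAs differed by 0.48 (limma, adjusted p = 1.31e-06). Its libraries read 9048 and 8507 normalized counts in shGFP, 11399 and 10686 with shRNA 1, and 7879 and 8002 with shRNA 2, and both replicates of each shRNA lay on the same side of the controls. SQLE, squalene epoxidase, was lower than si-control with NKX2-1 siRNA 1 (-0.30) and higher with NKX2-1 siRNA 2 (0.21), a difference of -0.51 (limma, adjusted p = 2.73e-10), again with both replicates of each siRNA on the same side. Over all genes tested, 0.519% passed with both circRMST shRNAs in opposite directions and 1.78% with both NKX2-1 siRNAs.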

How the results depend on the processing

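No member changed direction under an alternative in a comparison where it had passed. The count of members lower with circRMST shRNA, 9 in the deposited scaling, was 17 with equal library totals, 14 when mitochondrial and 7SL-type genes were also left out of those totals, and 15 with quantile normalization; all genes tested went from 5294 higher and 4936 lower to 3636 and 6512 with equal totals. Between circRMST shRNAs, the count of higher members was 3 with equal totals without those genes, 3 with quantile normalization, 1 with no filter and 2 to 4 with a replicate left out, and that of lower members 3 with no filter and 4 to 6. Between SOX2 siRNAs, higher members numbered 2 with no filter, 3 with only the groups compared and 1 to 7 with a replicate left out. Between NKX2-1 siRNAs, lower members numbered 9 to 14 with a replicate left out. In the knockdowns, leaving out a replicate gave 10 to 13 higher and 7 to 10 lower for circRMST, 19 to 22 and 5 for SOX2, and 15 to 17 and 5 to 6 for NKX2-1.

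edgeR on the recovered reads called 5025 higher and 5175 lower genes for circRMST, 4552 and 4724 for SOX2, and 3185 and 3525 for NKX2-1, and gave the same member counts as limma there. Replicate numbers did not pair the samples: deviations of same-numbered libraries correlated at -0.11 to 0.05. With the replicate block, members higher and lower were 12 and 9 for circRMST, 19 and 5 for SOX2, and 15 and 5 for NKX2-1. Between SOX2 siRNAs 3 members were higher. Only si-control had a replicate 3, so in the SOX2 and NKX2-1 comparisons with si-control the block in effect left that library out.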
